A study of Mus musculus with 16 samples.

Results

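Collagens are the triple-helical proteins of the extracellular matrix, and 36 of the 12393 mouse genes measured on the arrays encode a collagen chain. They were chosen by symbol alone, as every gene whose probe set annotation gives a single name of the form Col, digits, a, digits. Chains were sorted by textbook class into 9 fibrillar collagens, 8 basement membrane collagens and 19 others. For each gene the brightest of its probe sets, by mean over all 16 arrays, was used, and 19 of the 36 genes had more than 1 probe set, 58 in all.

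The arrays carried total RNA of the left lung, 1 mouse an array, from 4 groups of 4 mice each with 2 males (M1, M2) and 2 females (F1, F2). Deficient ozone mice lacked adiponectin, a hormone made by fat cells, and breathed 0.3 ppm ozone for 72 h, while deficient air mice had the same genotype and breathed room air for 72 h. Wildtype ozone and wildtype air mice had the same exposures. All were on the C57BL/6 background, with a mean age of 14 weeks, and the design asked how genotype and exposure act together. The allele behind the deficiency is not given in the labels, and nothing says whether the mice of a group were housed or exposed apart, so p-values measure the spread between these mice.

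Each collagen chain winds with others of its kind into a trimer in the endoplasmic reticulum, is hydroxylated and glycosylated there with the help of chaperones, and is secreted. Fibrillar procollagens are then trimmed and crosslinked into fibrils, which give alveolar walls, airways and vessels their tensile strength. Type IV collagens instead form the sheet-like network of basement membranes under epithelium and endothelium, and FACIT collagens sit on the surface of fibrils. In lung, fibroblasts and smooth muscle cells are known as the main makers of fibrillar chains.

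Values below are log2 of the deposited intensities, and a difference is on that log2 scale with its standard error from the limma fit. Calls needed a p under 0.05 after Benjamini-Hochberg adjustment across the 12393 genes. Of the 36 genes, 28 lay above a dim limit of 5.83, under which 25% of all gene means fall, and 8 lay below it, namely Col9a2, Col10a1, Col11a1, Col11a2, Col17a1, Col19a1, Col22a1 and Col26a1. The brightness of a probe set is not the abundance of its RNA, so levels of different genes are not compared. Because whole lung was measured, fewer cells of a type and less RNA per cell cannot be told apart.

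Adipoq, the gene of adiponectin, averaged 6.68 ± 0.90 on deficient and 8.48 ± 1.35 on wildtype arrays (SD, n = 8 each, difference -1.80, two-sided exact permutation p = 0.0042). Deficient air F2 read 8.82, within the wildtype range of 7.19 to 11.52, whose highest array was wildtype air F1. The other deficient arrays read 6.07 to 6.97. Where the Adipoq probes lie relative to the altered part of the gene is unknown, so this check is limited. The 3 male-specific genes of the Y chromosome read 3.82 to 4.46 on the female arrays, below the dim limit of 5.83. Their values on the male arrays are not given here, so the male labels are not checked by them. The free description of wildtype ozone F1 names room air, while its title and exposure fields name ozone. Markers of division summed to 1479.6 or more intensity units on all wildtype ozone arrays, that one included, and to 353.7 at most on wildtype air arrays. Of the air arrays, 3 carried markers of other tissues. Fat markers summed to 7779.4 on deficient air F2 and 6257.3 on wildtype air F1, against at most 1434.2 on the other arrays. Skeletal muscle markers reached 24156.8 and squamous epithelium markers 17635.6 on deficient air M2. Counts are therefore also given without these arrays.

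Ozone raised most fibrillar collagens and the type VI chains in both genotypes, and type IV chains moved in both directions. In deficient lungs 16 collagen genes rose, 2 fell and 18 did not pass the test, when 15.8% of all genes rose and 14.6% fell, 30.3% in all. In wildtype lungs 19 rose, 1 fell and 16 did not pass, when 19.6% of all genes rose and 17.1% fell, 36.7% in all. The same 16 genes rose in both genotypes, 1 gene (Col4a5) fell in both, and 15 passed in neither. The 4 ozone arrays did not overlap the 4 air arrays for 13 collagen genes that were higher and 2 that were lower in deficient lungs, against 28.7% of all genes (15.4% higher, 13.3% lower). In wildtype lungs this held for 13 that were higher and none that was lower, against 31.4% of all genes (17.1% higher, 14.2% lower). The median difference over the 36 genes was 0.13 in deficient and 0.24 in wildtype lungs, and that over all genes was 0.012 and 0.032. Without the 3 air arrays 13 rose and 2 fell in deficient lungs and 20 rose and 1 fell in wildtype lungs, and without wildtype ozone F1, 17 rose and 1 fell in wildtype lungs.

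The classes differed in their counts. Among the 9 fibrillar genes 6 rose in deficient lungs, with a median of 0.73, and 7 rose in wildtype lungs, with a median of 0.67. Of the 8 basement membrane genes 4 rose and 2 fell in deficient lungs (median 0.23), and 4 rose and 1 fell in wildtype lungs (median 0.19). Of the 19 others 6 rose in deficient lungs (median 0.11) and 8 in wildtype lungs (median 0.18), and in deficient lungs 3 rose without the 3 air arrays. In deficient lungs 66.7% of fibrillar, 75% of basement membrane and 31.6% of other genes passed, against 30.3% of all genes. In wildtype lungs 77.8%, 62.5% and 42.1% passed, against 36.7% of all genes. The passed shares of the other class lay near those of all genes, but every called gene of that class rose. By direction, 15.8% of all genes rose in deficient and 19.6% in wildtype lungs. No test of the difference between classes was made.

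**Figure D1:**
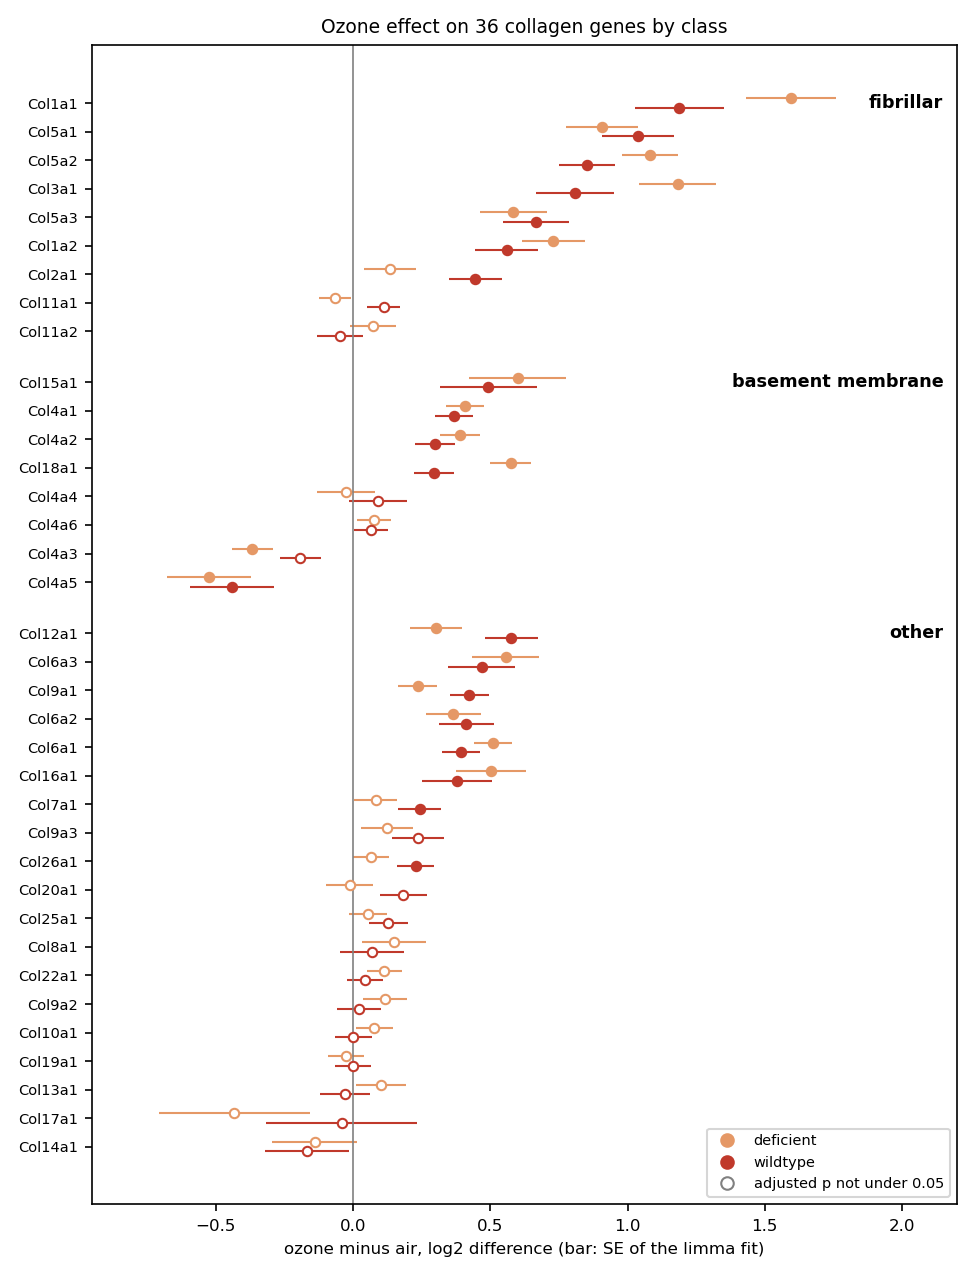
Ozone minus air difference (log2, horizontal axis) of each of the 36 collagen genes (vertical axis, grouped by class), with the deficient point above the wildtype point and bars for the standard error. Filled points passed an adjusted p under 0.05. Col1a1 has the largest rise in both genotypes, 1.60 in deficient and 1.19 in wildtype lungs, and the filled points left of 0 are Col4a5 and Col4a3.

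The mean of the 9 fibrillar genes on each array, taken relative to wildtype air, ran from 0.47 to 0.82 in deficient ozone and from -0.26 to 0.07 in deficient air. It ran from 0.38 to 0.77 in wildtype ozone and from -0.22 to 0.23 in wildtype air. Every ozone array therefore lay above every air array for this class. The basement membrane mean ran from -0.10 to 0.07 in deficient ozone and from -0.26 to -0.06 in deficient air, and from -0.11 to 0.30 in wildtype ozone and from -0.07 to 0.13 in wildtype air, so that exposures overlapped in both genotypes.

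**Figure D2:**
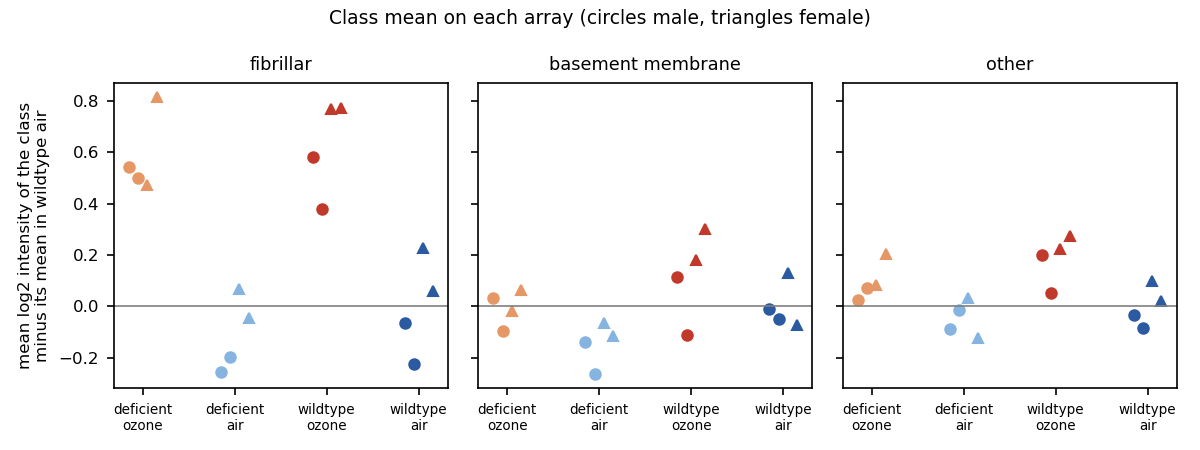
Mean log2 intensity of the 9 fibrillar, 8 basement membrane and 19 other collagen genes on each array, minus the mean of the 4 wildtype air arrays (circles male, triangles female). The fibrillar panel separates ozone from air arrays in both genotypes, and the other 2 panels show overlap.

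Type I collagen, a heterotrimer of Col1a1 and Col1a2 chains, is the main tensile fibril of lung. Col1a1 read 11.45, 11.43, 11.35 and 11.95 on deficient ozone arrays M1, M2, F1 and F2, against 9.53, 9.72, 10.37 and 10.18 on deficient air arrays. On wildtype ozone arrays it read 11.62, 11.09, 11.62 and 12.02, against 10.21, 10.20, 10.91 and 10.28 on wildtype air arrays. Exposures did not overlap in either genotype, and Col1a1 had the largest rise of the family. The difference was 1.60 ± 0.16 in deficient lungs, 3.02-fold (adjusted p = 6.5e-06), and 1.19 ± 0.16 in wildtype lungs, 2.28-fold (adjusted p = 8.3e-05).

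Col1a2 rose less on its brightest probe set. It read 12.51, 12.46, 12.34 and 12.67 on deficient ozone arrays and 11.72, 11.68, 11.94 and 11.72 on deficient air arrays, a difference of 0.73 ± 0.11 (adjusted p = 0.00025). Wildtype ozone arrays read 12.72, 12.09, 12.65 and 12.57 and wildtype air arrays 11.96, 11.77, 12.14 and 11.92, a difference of 0.56 ± 0.11 (adjusted p = 0.0016). The deficient groups were apart, and wildtype ozone M2 lay below wildtype air F1.

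The promoter of Col1a2 is shown because this chain moved with its partner and RefSeq gives a window for it, and the Col1a1 promoter is not shown here. The window (RefSeq, GRCm38.p6, chr6:4505368-4505667, plus strand) covers 250 bases before and 50 after the start, and capitals mark CCAAT and GGGCGG on either strand.
Col1a2: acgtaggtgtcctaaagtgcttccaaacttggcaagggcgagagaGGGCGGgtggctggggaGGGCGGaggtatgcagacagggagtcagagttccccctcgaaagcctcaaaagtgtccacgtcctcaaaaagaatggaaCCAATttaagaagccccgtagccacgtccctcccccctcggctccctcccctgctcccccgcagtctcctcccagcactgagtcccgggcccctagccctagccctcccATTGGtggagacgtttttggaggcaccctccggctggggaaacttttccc
Both GGGCGG matches and 1 CCAAT match are upstream of the start, and the second CCAAT match, on the other strand, begins at it. Over the family, 27 of 36 genes had a window, 30 windows in all. CCAAT stood in 12 of the 30, against 37.4% of 32851 windows of the same length over all genes, and GGGCGG in 17 of the 30, against 35.7%. TATAAA stood in 5, against 13.6%, and TGANTCA in 1, against 7.8%. A match is only a run of letters, and no binding was measured.

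Type III collagen, a homotrimer of Col3a1 chains, forms thin fibrils in distensible tissue such as lung and vessels. Col3a1 read 12.98, 12.86, 12.74 and 13.20 on deficient ozone arrays, against 11.40, 11.46, 12.08 and 12.11 on deficient air arrays. Wildtype ozone arrays read 12.78, 12.42, 13.04 and 13.08, against 12.09, 11.75, 12.32 and 11.92 on wildtype air arrays. Again no ozone array fell among the air arrays of its genotype. The difference was 1.18 ± 0.14 in deficient lungs, 2.27-fold (adjusted p = 2.6e-05), and 0.81 ± 0.14 in wildtype lungs, 1.75-fold (adjusted p = 0.00051).

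Type V collagen co-assembles with type I and is known to limit fibril diameter, and all 3 of its chains rose in both genotypes. Col5a1 read 8.90, 8.91, 8.91 and 9.33 on deficient ozone arrays and 7.84, 7.84, 8.48 and 8.26 on deficient air arrays. On wildtype ozone arrays it read 8.91, 8.65, 9.20 and 9.45, and on wildtype air arrays 7.90, 7.39, 8.43 and 8.36. Ozone and air arrays were apart in both genotypes. Its difference was 0.91 ± 0.13 in deficient lungs (adjusted p = 0.00012) and 1.04 ± 0.13 in wildtype lungs (adjusted p = 4.4e-05).

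Col5a2, another type V chain, read 10.44, 10.51, 10.24 and 10.68 on deficient ozone arrays, against 9.33, 9.19, 9.53 and 9.49 on deficient air arrays. On wildtype ozone arrays it read 10.44, 10.24, 10.62 and 10.62, against 9.78, 9.40, 9.67 and 9.66 on wildtype air arrays. Exposures were apart in both genotypes, and the SD was 0.18 or less in each group. It rose by 1.08 ± 0.10 in deficient lungs (adjusted p = 2.9e-06) and 0.85 ± 0.10 in wildtype lungs (adjusted p = 3.1e-05). Col5a3 was dimmer and rose by 0.58 ± 0.12 in deficient lungs (adjusted p = 0.0019) and 0.67 ± 0.12 in wildtype lungs (adjusted p = 0.00067).

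The remaining 3 fibrillar genes are known mainly from cartilage. Col2a1, the chain of type II collagen, averaged 6.15 ± 0.20 in deficient ozone and 6.02 ± 0.05 in deficient air lungs, a difference of 0.13 ± 0.10 (adjusted p = 0.32). It averaged 6.32 ± 0.18 in wildtype ozone and 5.88 ± 0.10 in wildtype air lungs (SD, n = 4 each) and rose there by 0.45 ± 0.10 (adjusted p = 0.0022). Wildtype ozone F1 was the highest of its group at 6.60, and the other 3 lay between 6.21 and 6.25. Whether Col2a1 differed between genotypes in its response is given with the interaction below. Col11a1 and Col11a2, the type XI chains, lay below the dim limit and passed in neither genotype, with differences from -0.06 to 0.11.

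Cartilage markers were measured beside these chains, since airway cartilage may be sampled with lung. Of 9 such markers none was called in deficient lungs and 3 rose in wildtype lungs, 2 of which (Matn3 and Acan, named after their values were seen) lost the call under 4 and 16 of 24 alternatives. The summed intensity of the list was 485.9 to 645 in deficient ozone and 490.6 to 636.1 in deficient air lungs, and 502.2 to 772 in wildtype ozone and 423.8 to 752.3 in wildtype air lungs. Over all genes 15.8% rose in deficient and 19.6% in wildtype lungs. Chad, singled out after its values were seen, gave 61.6% of the summed intensity. The mean log2 level of the 9 markers was 5.092 to 5.176 in deficient ozone and 5.101 to 5.174 in deficient air lungs, which overlapped. In wildtype lungs it was 5.208 to 5.280 in ozone and 5.057 to 5.205 in air, without overlap. The part of cartilage in the Col2a1 result was not tested.

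**Figure D3:**
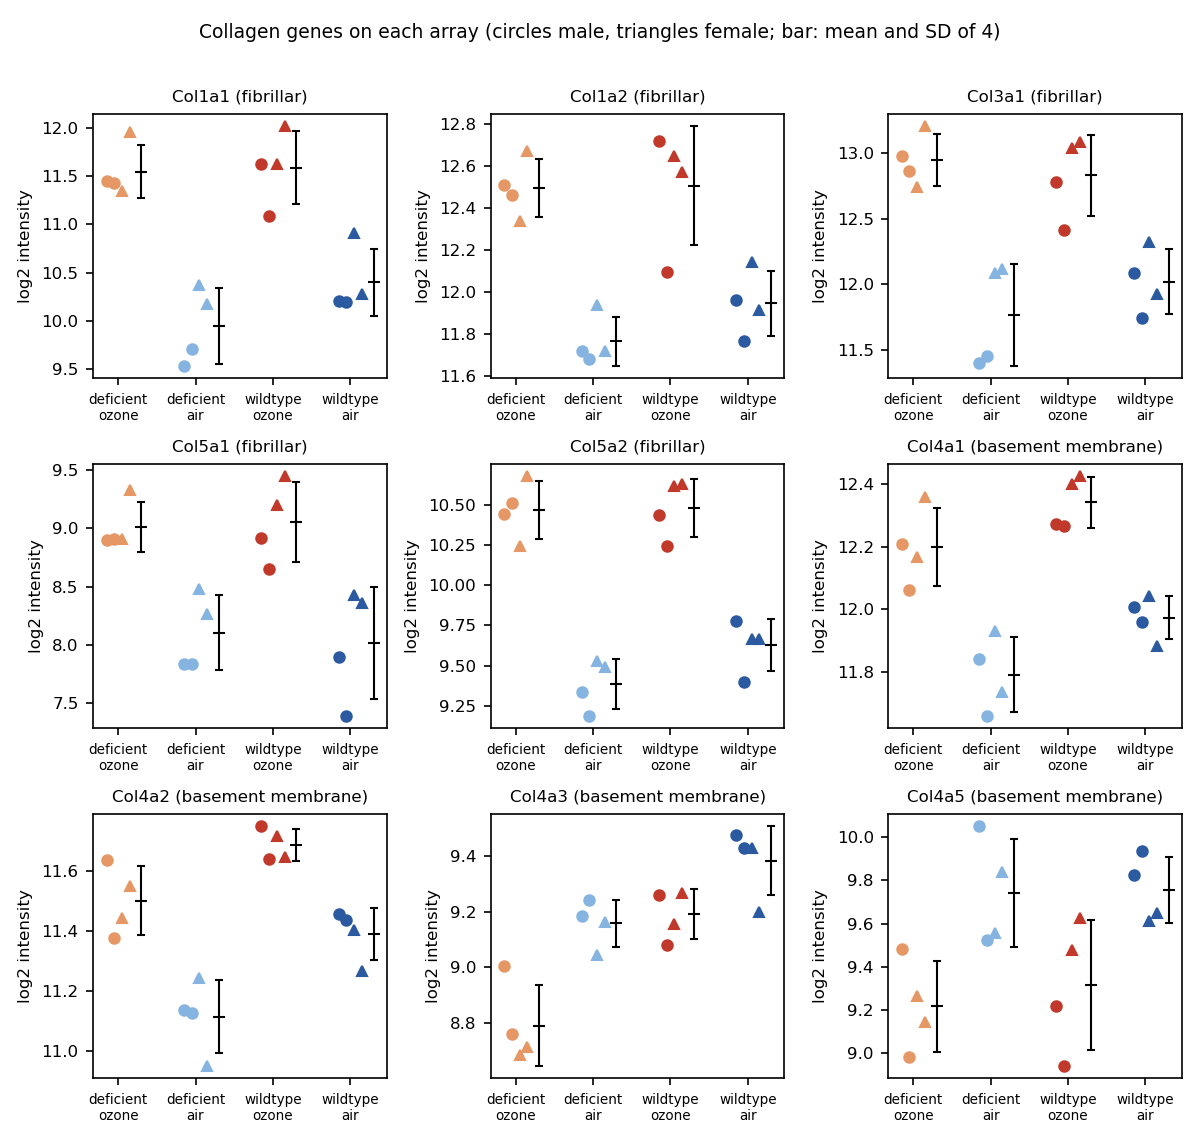
Log2 intensity of 5 fibrillar and 4 type IV collagen genes on every array in the 4 groups (circles male, triangles female, bar mean and SD of 4). Ozone arrays lie above air arrays of their genotype for Col1a1, Col3a1, Col5a1, Col5a2, Col4a1 and Col4a2, and deficient ozone arrays lie lowest for Col4a3.

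Type IV collagen comes in 3 known trimers. Col4a1 and Col4a2 chains build the network found in nearly all basement membranes, Col4a3, Col4a4 and Col4a5 build that of alveolar and glomerular membranes, and Col4a5 with Col4a6 builds another. Both chains of the widespread network rose in each genotype, while of the alveolar network Col4a3 fell in deficient lungs and Col4a5 in both genotypes. The genes lie in head-to-head pairs, Col4a1 beside Col4a2, Col4a3 beside Col4a4 and Col4a5 beside Col4a6.

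Of the 3 pairs, Col4a1 and Col4a2 were the only one whose members were called together for ozone, so their promoter windows are shown (RefSeq, GRCm38.p6). The Col4a1 window is chr8:11312777-11313076 on the minus strand and the Col4a2 window chr8:11312555-11312854 on the plus strand. Capitals mark CCAAT and GGGCGG on either strand.
Col4a1: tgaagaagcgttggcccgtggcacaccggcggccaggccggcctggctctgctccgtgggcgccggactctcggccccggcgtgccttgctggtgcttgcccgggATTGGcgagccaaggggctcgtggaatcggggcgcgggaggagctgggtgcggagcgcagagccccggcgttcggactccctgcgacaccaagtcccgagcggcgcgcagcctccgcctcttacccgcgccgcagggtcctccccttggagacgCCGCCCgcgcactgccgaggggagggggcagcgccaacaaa
Col4a2: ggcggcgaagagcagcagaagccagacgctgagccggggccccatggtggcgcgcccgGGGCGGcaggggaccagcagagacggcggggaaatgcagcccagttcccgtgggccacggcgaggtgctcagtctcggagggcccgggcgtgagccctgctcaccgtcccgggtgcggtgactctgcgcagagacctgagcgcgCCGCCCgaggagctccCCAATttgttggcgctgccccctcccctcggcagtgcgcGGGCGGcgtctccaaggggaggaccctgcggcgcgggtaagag
The annotated starts lie 21 bases apart on opposite strands and the windows share 78 bases. The shared run holds 1 GGGCGG match, which therefore appears in both. No TATAAA match was found in either window.

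Col4a1 read 12.21, 12.06, 12.17 and 12.36 on deficient ozone arrays, against 11.84, 11.66, 11.93 and 11.73 on deficient air arrays. Wildtype ozone arrays read 12.27, 12.27, 12.40 and 12.43, against 12.01, 11.96, 12.04 and 11.88 on wildtype air arrays. The groups did not overlap, and the rise of 0.41 ± 0.07 in deficient lungs (adjusted p = 0.00049) and 0.37 ± 0.07 in wildtype lungs (adjusted p = 0.00094) was small beside that of Col1a1. Col4a2 read 11.64, 11.38, 11.44 and 11.55 on deficient ozone arrays and 11.14, 11.13, 11.24 and 10.95 on deficient air arrays. On wildtype ozone arrays it read 11.75, 11.64, 11.72 and 11.65 and on wildtype air arrays 11.46, 11.44, 11.40 and 11.27. Here too all ozone arrays were above the air arrays, by 0.39 ± 0.07 in deficient lungs (adjusted p = 0.00096) and 0.30 ± 0.07 in wildtype lungs (adjusted p = 0.0053). The gap between Col4a1 and Col4a2 on the same array was 0.57 to 0.81 in deficient ozone and 0.53 to 0.79 in deficient air lungs, and 0.52 to 0.78 in wildtype ozone and 0.52 to 0.64 in wildtype air lungs, so it overlapped between exposures.

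Col4a3, a chain of the alveolar network, read 9.0, 8.76, 8.69 and 8.71 on deficient ozone arrays, against 9.19, 9.24, 9.04 and 9.16 on deficient air arrays. It read 9.26, 9.08, 9.15 and 9.27 on wildtype ozone arrays, against 9.47, 9.43, 9.43 and 9.20 on wildtype air arrays. The deficient groups were apart and the wildtype groups overlapped at wildtype air F2. Col4a3 fell by 0.37 ± 0.07 in deficient lungs (adjusted p = 0.0018), and the wildtype difference of -0.19 ± 0.07 did not pass (adjusted p = 0.056). With single arrays left out in turn, the wildtype difference did pass for 3 of the 16. On the same arrays Col4a1 stood 3.20 to 3.65 above Col4a3 in deficient ozone and 2.42 to 2.89 in deficient air lungs, and 3.02 to 3.25 in wildtype ozone and 2.53 to 2.68 in wildtype air lungs. These chains were set side by side after their values were seen, and the ranges show unequal change of the pair, as a description.

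Col4a5, on the X chromosome, fell in both genotypes, and its arrays are given after their values were seen. It read 9.48, 8.98, 9.26 and 9.14 on deficient ozone arrays and 10.05, 9.52, 9.56 and 9.84 on deficient air arrays, a difference of -0.52 ± 0.15 (adjusted p = 0.018). Wildtype ozone arrays read 9.22, 8.94, 9.48 and 9.62 and wildtype air arrays 9.83, 9.93, 9.61 and 9.65, a difference of -0.44 ± 0.15 (adjusted p = 0.036). The wildtype groups touched, since wildtype ozone F2 lay above wildtype air F1. The call was lost in deficient lungs without deficient ozone M2, deficient ozone F2 or deficient air M1, and in wildtype lungs without any of the 4 wildtype male arrays or with arrays shifted to a common median, with adjusted p-values up to 0.069 and 0.13. A second, dimmer Col4a5 probe set differed by -0.19 ± 0.09 in deficient and -0.15 ± 0.09 in wildtype lungs and did not pass. Col4a4 and Col4a6 passed in neither genotype, with differences from -0.03 to 0.09.

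Of alveolar type 1 cell markers, which belong to the thin epithelium that rests on the alveolar membrane, 1 of 6 rose and 2 fell in deficient lungs and 2 rose and 1 fell in wildtype lungs (1 and 1 without the 3 air arrays). Their summed intensity was 34659.2 to 37954.9 in deficient ozone and 36183.6 to 39820.5 in deficient air lungs, and 38011.8 to 40586.4 in wildtype ozone and 38348.4 to 41255.8 in wildtype air lungs. Endothelium markers summed to 13929.5 to 16207.5 in deficient ozone and 13332.5 to 15198.5 in deficient air lungs, with 3 of 8 higher and 1 lower (1 higher and 1 lower without the 3 air arrays). In wildtype ozone they summed to 13622.6 to 15871.9 and in wildtype air to 13695.7 to 15008.8, with none higher and 2 of 8 lower. Over all genes 30.3% passed in deficient and 36.7% in wildtype lungs. The sums of both lists overlapped between exposures, and the part of either cell type in the type IV values was not tested.

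Col15a1 and Col18a1 encode the collagens of basement membrane zones that carry heparan or chondroitin sulfate chains, and the end of the type XVIII chain is cut to endostatin. Col18a1 rose by 0.57 ± 0.07 in deficient lungs (adjusted p = 5.1e-05), where the groups did not overlap, and by 0.29 ± 0.07 in wildtype lungs (adjusted p = 0.0063), where they did. The wildtype call was lost without the sex term (adjusted p = 0.11). Col15a1 rose by 0.60 ± 0.18 in deficient lungs (adjusted p = 0.018) and 0.49 ± 0.18 in wildtype lungs (adjusted p = 0.041), with overlapping groups in both. Its wildtype call was lost without the sex term, with the replicate block, and without any of 6 single arrays (wildtype ozone M1, F1 or F2, wildtype air M1, M2 or F2), with adjusted p-values up to 0.18. In deficient lungs it was lost without the sex term and without deficient ozone M2 or F2, up to 0.13.

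The 3 type VI genes, whose chains form beaded filaments between fibrils and cells, rose together. Col6a1 rose by 0.51 ± 0.07 in deficient lungs (adjusted p = 8.0e-05) and 0.39 ± 0.07 in wildtype lungs (adjusted p = 0.00052). Col6a3 rose by 0.56 ± 0.12 (adjusted p = 0.0029) and 0.47 ± 0.12 (adjusted p = 0.0077) in the same lungs. Col6a2 rose by 0.37 ± 0.10 in deficient lungs (adjusted p = 0.012) and 0.41 ± 0.10 in wildtype lungs (adjusted p = 0.0050). Its deficient difference was 0.23 without the 3 air arrays, where it did not pass (adjusted p = 0.11).

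Among the 9 FACIT genes 3 rose in each genotype, and they were the same 3. That is 33.3%, when 15.8% of all genes rose in deficient and 19.6% in wildtype lungs. In either direction 30.3% of all genes passed in deficient and 36.7% in wildtype lungs. Col12a1, which decorates type I fibrils, rose by 0.30 ± 0.10 in deficient lungs (adjusted p = 0.026) and 0.58 ± 0.10 in wildtype lungs (adjusted p = 0.00035), with groups apart in wildtype and overlapping in deficient lungs. Col16a1 rose by 0.50 ± 0.13 in deficient lungs (adjusted p = 0.0075) and 0.38 ± 0.13 in wildtype lungs (adjusted p = 0.030). Col9a1, known from cartilage, rose by 0.23 ± 0.07 in deficient lungs (adjusted p = 0.022) and 0.42 ± 0.07 in wildtype lungs (adjusted p = 0.00042). The deficient calls of Col12a1 and Col9a1 were lost without the 3 air arrays (adjusted p = 0.13 and 0.092) and without single deficient arrays (Col12a1 without ozone M2, F1 or F2 or air F1 or F2, and Col9a1 without ozone M2 or F2 or air M1). Without any of 5 wildtype arrays (ozone M1 or F2, air M1, M2 or F2) the wildtype call of Col16a1 was lost, with an adjusted p up to 0.11.

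Col14a1, another FACIT chain on type I fibrils, averaged 8.25 ± 0.15 in deficient ozone and 8.39 ± 0.21 in deficient air lungs, and 8.19 ± 0.57 in wildtype ozone and 8.36 ± 0.44 in wildtype air lungs (SD, n = 4 each). It did not pass in either genotype. Col9a2, Col9a3, Col19a1, Col20a1 and Col22a1 passed in neither, with differences from -0.03 to 0.24.

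Col7a1, the chain of the anchoring fibrils of squamous epithelium, rose by 0.24 ± 0.08 in wildtype lungs (adjusted p = 0.024) and differed by 0.08 ± 0.08 in deficient lungs (adjusted p = 0.47). Col26a1 rose by 0.23 ± 0.07 in wildtype lungs (adjusted p = 0.014), at levels below the dim limit, and differed by 0.07 ± 0.07 in deficient lungs (adjusted p = 0.49). Their wildtype calls were lost without single wildtype arrays, Col7a1 without ozone F1 or F2 or air M1 or F2 (up to 0.073) and Col26a1 without air M1 (0.052). The transmembrane chains Col13a1, Col17a1 and Col25a1 and the network chains Col8a1 and Col10a1 passed in neither genotype. Col17a1, a hemidesmosome chain of squamous epithelium, read 7.0 on deficient air M2, the array with squamous and skeletal muscle markers, and 5.18 to 5.86 on the other 15 arrays.

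Dimmer probe sets of the same genes gave other sizes of the ozone difference. For Col3a1 a probe set with a mean of 7.74, against 12.39 for the brightest, differed by 1.92 ± 0.19 in deficient and 1.40 ± 0.19 in wildtype lungs. The dimmer Col1a2 probe set, at 9.46 against 12.18, differed by 1.27 ± 0.15 in deficient and 1.04 ± 0.15 in wildtype lungs. For Col6a2 the dimmer set differed by 0.79 ± 0.11 in each genotype. The dimmer sets of Col1a1 (1.73 and 1.43), Col4a1 (0.55 and 0.47) and Col18a1 (0.61 and 0.44) also differed by more than the brightest. The dimmer sets of Col5a2 (0.45 and 0.43) and Col5a3 (0.08 and 0.07, neither called) differed by less. Sizes from the brightest probe set are therefore sizes of that probe set, and in no called collagen gene did a dimmer probe set turn the direction.

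**Figure D4:**
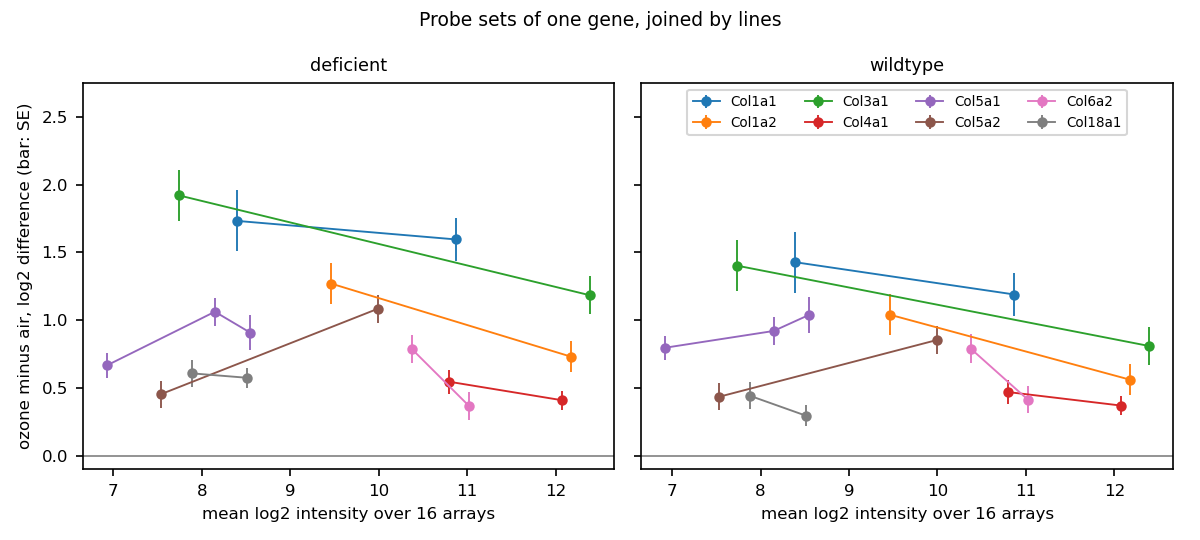
Ozone minus air difference (log2, bars standard error) of each probe set of 8 collagen genes against its mean log2 intensity over 16 arrays, with probe sets of a gene joined, in deficient (left) and wildtype (right) lungs. The dimmer probe sets of Col1a1, Col1a2, Col3a1, Col4a1, Col6a2 and Col18a1 lie above the brighter ones, and that of Col5a2 lies below.

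Genes that make, trim, crosslink, bind and degrade collagen were taken from lists drawn up with earlier results of these data known. Over all genes 15.8% rose and 14.6% fell in deficient lungs, and 19.6% rose and 17.1% fell in wildtype lungs. These shares belong beside every list count that follows. Of 17 synthesis and secretion genes 7 rose and 1 fell in deficient lungs, with a median of 0.20, and 8 rose and 1 fell in wildtype lungs, with a median of 0.21. Serpinh1, the procollagen chaperone, rose by 0.98 ± 0.14 in deficient and 0.83 ± 0.14 in wildtype lungs. Of the lysyl hydroxylases, Plod1 rose by 0.47 ± 0.06 in deficient and 0.29 ± 0.06 in wildtype lungs, and Plod3 by 0.43 ± 0.07 in each genotype. Plod2, which hydroxylates the ends of the chains where crosslinks form, fell by 0.66 ± 0.09 in deficient and by 0.65 ± 0.09 in wildtype lungs.

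Among 10 processing and crosslinking genes 5 rose and 1 fell in deficient lungs, and 4 rose and 2 fell in wildtype lungs. Over all genes 30.3% passed in deficient and 36.7% in wildtype lungs. The crosslinking oxidases led them, with Loxl1 higher by 0.99 ± 0.13 in deficient and 0.75 ± 0.13 in wildtype lungs. Lox read 9.39, 9.53, 9.30 and 9.73 on deficient ozone arrays and 8.68, 8.35, 8.60 and 8.55 on deficient air arrays, a rise of 0.94 ± 0.10. On wildtype ozone arrays Lox read 9.09, 9.36, 9.40 and 9.25 and on wildtype air arrays 8.64, 8.79, 8.80 and 8.63, a rise of 0.56 ± 0.10. Exposures were apart for Lox in both genotypes. Pcolce2, which enhances the trimming of procollagen, fell by 0.48 ± 0.11 in deficient and by 0.36 ± 0.11 in wildtype lungs, where the call was lost without wildtype ozone M2 (adjusted p = 0.056). Tll1, a protease that trims procollagen, differed by -0.15 ± 0.08 in deficient lungs (adjusted p = 0.17) and fell by 0.47 ± 0.08 in wildtype lungs.

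Among 8 collagen-degrading proteases 4 rose and 1 fell in deficient lungs, with a median of 0.46, and 4 rose and none fell in wildtype lungs, with a median of 0.63. Mmp14, a membrane collagenase, rose by 1.10 ± 0.08 in deficient and 0.91 ± 0.08 in wildtype lungs. Ctsk, a lysosomal collagenase, rose by 1.07 ± 0.15 in deficient and 0.67 ± 0.15 in wildtype lungs. Mmp2, which cleaves denatured and type IV collagen, rose by 0.78 ± 0.13 in deficient and 0.65 ± 0.13 in wildtype lungs. Synthesis and degradation genes thus both had members that rose, when 15.8% of all genes rose in deficient and 19.6% in wildtype lungs.

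Of 6 collagen receptors 2 rose and 2 fell in deficient lungs and 1 rose and 3 fell in wildtype lungs. The shares of all genes that passed were 30.3% in deficient and 36.7% in wildtype lungs. Mrc2, which takes up collagen for breakdown, rose by 1.05 ± 0.13 in deficient and 1.15 ± 0.13 in wildtype lungs. The receptor kinase Ddr2 fell by 0.35 ± 0.07 in deficient and by 0.19 ± 0.07 in wildtype lungs. The brightest Ddr1 probe set fell by 0.23 ± 0.08 in deficient and by 0.33 ± 0.08 in wildtype lungs, while the mean of its probe sets differed by 0.016 and 0.0079 and did not pass (adjusted p = 0.86 and 0.93). The wildtype Ddr2 call was also lost without any of 6 wildtype arrays (ozone M2, F1 or F2, air M2, F1 or F2), and the deficient Ddr1 call without any of 5 deficient arrays (ozone F1 or F2, air M1, F1 or F2). Both were lost without the 3 air arrays (adjusted p = 0.12 and 0.093).

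Of 13 fibril regulators 3 rose and 1 fell in deficient lungs and 4 rose and 3 fell in wildtype lungs (4 and 1 without the 3 air arrays). Fn1, the fibronectin on which collagen fibrils assemble, rose by 0.90 ± 0.11 in deficient and 0.95 ± 0.11 in wildtype lungs. Ogn, a small leucine-rich proteoglycan of fibrils, fell by 0.88 ± 0.13 in each genotype. Of 14 basement membrane partners 4 rose and 2 fell in deficient lungs, and 4 rose and 3 fell in wildtype lungs. For both lists the share of all genes that passed was 30.3% in deficient and 36.7% in wildtype lungs. The laminin chain Lamc1 rose by 0.54 ± 0.08 in deficient and 0.41 ± 0.08 in wildtype lungs, and nidogen Nid2, which ties laminin to type IV collagen, fell by 0.46 ± 0.08 and by 0.38 ± 0.08.

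Markers of the cells known to make collagen were measured beside these lists. Of 14 fibroblast markers 2 rose and 3 fell in deficient lungs and 1 rose and 5 fell in wildtype lungs. By direction, 15.8% of all genes rose and 14.6% fell in deficient lungs, 30.3% in all. In wildtype lungs 19.6% of all genes rose and 17.1% fell, 36.7% in all. Without the 3 air arrays 1 rose and 2 fell in deficient and 1 rose and 3 fell in wildtype lungs. Cd34, named for wildtype lungs after its values were seen, rose by 0.36 ± 0.08 in deficient and 0.30 ± 0.08 in wildtype lungs. Mfap5 rose by 0.45 ± 0.13 in deficient lungs, a call lost without deficient ozone M1 and without the 3 air arrays (adjusted p = 0.081), and differed by 0.26 ± 0.13 in wildtype lungs (adjusted p = 0.13). Both mark fibroblasts among other cells. Pdgfra fell by 0.31 ± 0.09 in deficient and by 0.39 ± 0.09 in wildtype lungs, and Tcf21 by 0.46 ± 0.12 and by 0.38 ± 0.12. The Pdgfra calls were lost with the mean of its probe sets (adjusted p up to 0.48), and in deficient lungs without ozone M1 or air M1. The wildtype Tcf21 difference was -0.21 without wildtype ozone M2, and its call was also lost without wildtype air M1 or M2, and in deficient lungs without the 3 air arrays (adjusted p = 0.057). The list summed to 29949.4 to 31926.4 in deficient ozone and 33876.9 to 35475.9 in deficient air lungs, and to 28845.8 to 32026.6 in wildtype ozone and 34719.3 to 35965.6 in wildtype air lungs. Inmt, singled out after its values were seen, gave 43% of that sum. The mean log2 level of the 14 markers, which weights them equally, overlapped between exposures, at 9.50 to 9.63 in deficient ozone and 9.58 to 9.68 in deficient air lungs, and 9.32 to 9.74 in wildtype ozone and 9.51 to 9.82 in wildtype air lungs. The lack of overlap seen for the sums was therefore not shared by the equally weighted list. The median difference of the 14 markers was -0.10 in deficient and -0.12 in wildtype lungs.

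Of 9 smooth muscle and myofibroblast markers 5 rose and none fell in each genotype, when 15.8% of all genes rose in deficient and 19.6% in wildtype lungs. Acta2, smooth muscle actin, rose by 0.61 ± 0.13 in deficient and 0.54 ± 0.13 in wildtype lungs (not passed there without the sex term, adjusted p = 0.072), and Tnc, a matrix protein of wound myofibroblasts, by 3.31 ± 0.21 and 2.86 ± 0.21. The list summed to 10540.3 to 15463.6 in deficient ozone and 7992.2 to 9846.4 in deficient air lungs, with no overlap. It summed to 10514.6 to 17144.8 in wildtype ozone and 6078.3 to 13283.4 in wildtype air lungs, where wildtype air F1 overlapped. Division markers rose as 5 of 5 in each genotype. The part of these cells in the collagen values was not tested.

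Genotype was compared next, to ask whether adiponectin-deficient lungs differed in collagen. No collagen gene was called between deficient and wildtype lungs in ozone (0 of 36, against 0.0161% of all genes) or in air (0 of 36, against 0.00807%). At an unadjusted p under 0.05, 7 of the 36 differed in ozone and 8 in air, all of them lower in deficient lungs. Over all genes 11.2% differed at that p in ozone, 6.06% being lower, and 5.91% in air, 3.24% being lower. The median difference over the 36 genes was -0.07 in ozone and -0.11 in air.

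Col4a3 had the smallest p of the family in ozone. It averaged 8.79 ± 0.15 in deficient ozone and 9.19 ± 0.09 in wildtype ozone lungs, without overlap, a difference of -0.40 ± 0.07 that did not pass over all genes (adjusted p = 0.094). In air it averaged 9.16 ± 0.08 in deficient and 9.38 ± 0.12 in wildtype lungs (SD, n = 4 each), a difference of -0.22 ± 0.07 (adjusted p = 0.76). Col4a2 was lower on every deficient array than on every wildtype array of its exposure, by -0.19 ± 0.07 in ozone (adjusted p = 0.36) and -0.28 ± 0.07 in air (adjusted p = 0.56). The groups also did not overlap for Col26a1 in ozone, at -0.19 ± 0.07 (adjusted p = 0.31). Groups without overlap and lower in deficient lungs numbered 3 of 36 in ozone, against 3.32% of all genes, and 1 of 36 in air, against 1.62%. None was higher without overlap, against 2.16% of all genes in ozone and 0.815% in air, or 5.49% and 2.44% in either direction. All 6 type IV genes had differences below 0 in each exposure, from -0.40 to -0.10 in ozone and from -0.28 to -0.01 in air, apart from Col4a5 turning above 0 without any of 5 single arrays (wildtype ozone F2 in ozone, and wildtype air M1 or M2 or deficient air M2 or F1 in air).

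Averaged over both exposures, a contrast added after the data were seen, Col4a3 was lower in deficient lungs by -0.31 ± 0.05 (adjusted p = 0.041), as 1 of 36 collagen genes against 0.0888% of all genes. At an unadjusted p under 0.05, 10 of 36 differed, all lower, against 12.3% of all genes, 6.41% being lower. The Col4a3 call was lost without 13 of the 16 arrays when each was left out alone, all but wildtype ozone M2, wildtype air F2 and deficient ozone M1, and without the 3 air arrays (adjusted p = 0.18).

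The ozone response itself was compared between genotypes by the interaction, the deficient response minus the wildtype response. No collagen gene was called (0 of 36, against 0% of all genes), and 2 differed at an unadjusted p under 0.05, against 4.88% of all genes. Col18a1 rose more in deficient lungs by 0.28 ± 0.10 and Col2a1 less by -0.31 ± 0.13 (adjusted p = 0.98 for each), so neither difference passed. For Col1a1 the interaction was 0.41 ± 0.23, with Col1a1 in air averaging 9.95 ± 0.39 in deficient and 10.40 ± 0.34 in wildtype lungs and in ozone 11.54 ± 0.28 in deficient and 11.59 ± 0.38 in wildtype lungs (SD, n = 4 each). The median interaction over the 36 genes was 0.02.

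Sex was a term of the fit, and males were compared with females over all groups. Of the 36 collagen genes 8 were called lower in males, none was called higher and 28 did not pass, when 3.11% of all genes were lower and 2.55% higher, 5.66% in all. The median difference over the 36 genes was -0.05, and 7 of them had a difference above 0. Called were 3 fibrillar genes (Col1a1, Col5a1, Col5a3), 2 basement membrane genes (Col15a1, Col18a1) and Col6a3, Col13a1 and Col14a1. Without the 3 air arrays 6 were called. No collagen gene was called for a difference in the ozone response by sex, males minus females (0 of 36, against 0.00807% of all genes, and 2 at an unadjusted p under 0.05, against 8.65%), where the estimates ran from -0.42 to 0.26.

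Col18a1 was the steadiest of them. It read 8.64 and 8.63 in deficient ozone males, 8.95 and 8.91 in their females, 8.04 and 8.09 in deficient air males and 8.49 and 8.21 in their females. Wildtype ozone males read 8.64 and 8.38 and females 8.79 and 8.89, and wildtype air males read 8.30 and 8.09 and females 8.62 and 8.51. Both males lay below both females in 4 of 4 groups, and the difference was -0.32 ± 0.05 (adjusted p = 0.0032).

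Col14a1 read 8.07 and 8.29 in deficient ozone males against 8.20 and 8.42 in their females, and 8.27 and 8.16 in deficient air males against 8.61 and 8.51 in their females. It read 8.08 and 7.44 in wildtype ozone males against 8.5 and 8.73 in their females, and 7.94 and 8.01 in wildtype air males against 8.75 and 8.73 in their females. Males lay below females in 3 of 4 groups, with overlap in deficient ozone, and the difference was -0.52 ± 0.11 (adjusted p = 0.014). Its dimmer probe set differed by -0.25 ± 0.08 and did not pass.

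Col15a1 read 6.90 and 7.32 in deficient ozone males against 7.25 and 7.68 in their females, and 6.57 and 6.26 in deficient air males against 6.91 and 6.99 in their females. Wildtype ozone males read 7.13 and 6.62 against 7.46 and 7.75 in their females, and wildtype air males 6.39 and 6.30 against 7.57 and 6.73 in their females. The sexes overlapped in deficient ozone, and the difference was -0.60 ± 0.13 (adjusted p = 0.013).

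The type V chain Col5a3 read 5.84 and 5.68 in deficient ozone males against 6.28 and 6.46 in their females, and 5.36 and 5.62 in deficient air males against 5.45 and 5.50 in their females. Wildtype ozone males read 5.86 and 6.06 against 6.47 and 6.51 in their females, and wildtype air males 5.18 and 5.31 against 5.94 and 5.80 in their females. Here the sexes overlapped in deficient air, and the difference was -0.44 ± 0.09 (adjusted p = 0.010). Col5a1, whose arrays are given with the ozone values, differed by -0.51 ± 0.09 (adjusted p = 0.0066).

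Col6a3 read 10.39 and 10.58 in deficient ozone males against 10.51 and 10.79 in their females, and 9.86 and 9.74 in deficient air males against 10.35 and 10.08 in their females. Wildtype ozone males read 10.65 and 10.23 against 10.78 and 10.88 in their females, and wildtype air males 10.07 and 9.94 against 10.61 and 10.05 in their females. Both males lay below both females in 2 of 4 groups.

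Col13a1 read 9.05 and 8.81 in deficient ozone males against 9.30 and 8.99 in their females, and 8.66 and 8.74 in deficient air males against 9.28 and 9.05 in their females. Wildtype ozone males read 8.82 and 8.76 against 9.18 and 9.33 in their females, and wildtype air males 9.03 and 8.79 against 9.22 and 9.17 in their females. The sexes overlapped in deficient ozone. Col13a1, a transmembrane collagen of cell junctions with matrix, averaged 8.83 ± 0.135 in males and 9.19 ± 0.12 in females (SD, n = 8 each), a difference of -0.36 ± 0.06 (adjusted p = 0.0065). Col15a1, Col5a1, Col5a3, Col13a1 and Col1a1 each had both males below both females in 3 of 4 groups. Col1a1 differed by -0.43 ± 0.11 (adjusted p = 0.042) and Col6a3 by -0.33 ± 0.09 (adjusted p = 0.040). The calls of Col1a1 and Col6a3 were lost without 12 and 11 of the 16 arrays left out singly and without the 3 air arrays (-0.36, adjusted p = 0.14, and -0.26, adjusted p = 0.11). None of the 8 sex calls held under every alternative. In ozone arrays alone 1 collagen gene (Col5a3) was called lower in males and in air arrays alone 1 (Col14a1), so each of the 8 was lost in at least 1 of these fits on fewer arrays.

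**Figure D5:**
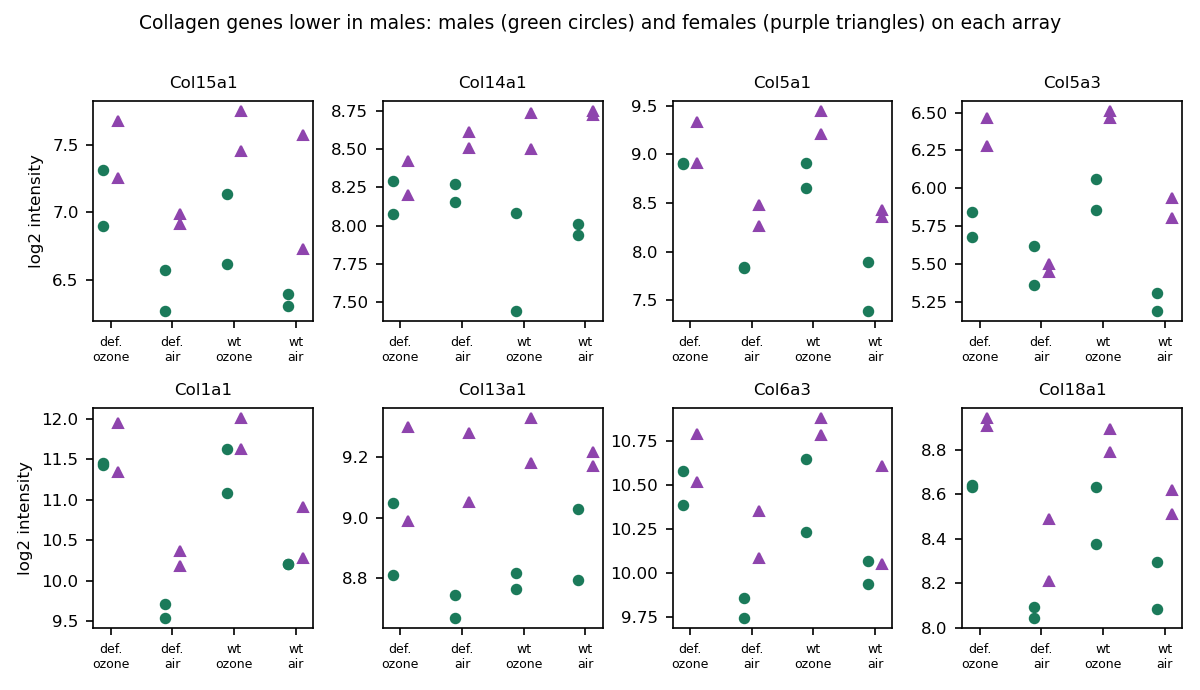
Log2 intensity of the 8 collagen genes called lower in males, for each male (green circle) and female (purple triangle) array in the 4 groups (def. deficient, wt wildtype). Both males lie below both females in all 4 groups for Col18a1, and in 2 or 3 groups for the other 7 genes.

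Smooth muscle markers were also lower in males, with 3 of 9 called. Their sum was 10514.6 to 13420.8 in ozone males against 13808.5 to 17144.8 in ozone females, without overlap. It was 6078.3 to 9116.4 in air males against 9275 to 13283.4 in air females, again without overlap. Acta2, singled out after its values were seen, gave 43.1% of that sum. The mean log2 level of the 9 markers overlapped between the sexes, at 9.39 to 9.746 in ozone males and 9.73 to 10.17 in ozone females. In air this mean was 8.51 to 9.05 in males and 8.97 to 9.56 in females. Fibroblast marker sums overlapped between the sexes, at 28845.8 to 32026.6 in ozone males against 29949.4 to 31628.9 in ozone females and 34337.6 to 35475.9 in air males against 33876.9 to 35965.6 in air females, with 2 of 14 called lower in males. Cartilage marker sums were 485.9 to 531.1 in ozone males against 612.7 to 772 in ozone females. In air they were 423.8 to 547.1 in males against 598.6 to 752.3 in females, with 1 of 9 called lower. Chad, the called marker, gave 61.6% of the sum, and the median difference of the 9 was 0.0057. Their mean log2 level overlapped between the sexes, at 5.09 to 5.22 in ozone males and 5.12 to 5.28 in ozone females. In air this mean was 5.06 to 5.15 in males and 5.11 to 5.21 in females. Crosslinking genes had 1 of 10 called lower and synthesis genes 0 of 17, when 3.11% of all genes were lower in males. The part of smooth muscle or cartilage in the sex differences was not tested.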

How the data were processed

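Left lung RNA of 16 mice was hybridised as biotin-labelled cRNA to Affymetrix arrays, per the labels' protocols. The authors deposited linear intensities, which come from RMA per the submitters' processing notes; its software and version are not given here. Intensities ran from 11.1 to 26974.7 and array medians from 145.9 to 153.7, and since RMA evens out the arrays, a shift shared by every transcript is hidden. Detection calls were not used. Precision is limited by having 4 arrays a group.

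Of 22690 probe sets 64 controls were left out, 20380 had 1 symbol, 691 several and 1555 none. Symbols came from the platform annotation and all 36 collagen genes matched RefSeq by gene ID. The brightest probe set of each of 12393 genes was fitted on log2 values with limma 3.58.1 in R 4.3.3 (lmFit, eBayes, 4 groups and sex, or 8 groups for ozone by sex), with Benjamini-Hochberg adjustment. Alternatives changed the normalization, the probe set, the filter, the prior, the weights, the sex term or the arrays. Values on every array were given for collagen genes called for ozone with an absolute difference of at least 0.7 or called for genotype or sex, and for Col4a1 and Col4a2. Other lists were given as counts with at most 4 called members of largest change per genotype, with the value in the other genotype beside it, and Lox and Col4a5 were added after their values were seen. The members and gene lists were chosen with earlier results of these data known. The fits were tested on simulated data. Planted log2 changes of 0.5 were recovered at 58% for the genotype by ozone interaction and 60% for ozone by sex. For the other contrasts 78% or more were recovered, and false calls ran from 3.63% to 6.91%. Smaller interactions could therefore be missed. Figures and promoter windows were made in Python 3.11.15 (pandas 2.3.3, matplotlib 3.10.9).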

Additional observations from a re-analysis of the deposited data

Results flagged for a closer look

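In groups of 4 arrays, 9 of 144 combinations of a collagen gene and a group had 1 array standing far from the other 3 by Dixon's test, or 6.25%, when chance flags about 1 in 20. Of the called genes, Col1a1 was high on deficient ozone F2 (11.95, the other 3 between 11.35 and 11.45) and on wildtype air F1 (10.91, the others between 10.20 and 10.28). Col5a1 was high on deficient ozone F2 (9.33, others 8.90 to 8.91), and Col1a2 on deficient air F1 (11.94, others 11.68 to 11.72). Col2a1 was high on wildtype ozone F1 (6.60, others 6.21 to 6.25). Col4a3 was low on wildtype air F2 (9.20, others 9.43 to 9.47). Also, 3 dim genes were far off, Col11a1 low on deficient air F2 (4.59, others 4.71 to 4.72), Col11a2 low on wildtype ozone F2 (5.72, others 5.84 to 5.86) and Col22a1 high on wildtype ozone F1 (5.04, others 4.96). All 9 fell on arrays of females.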

How the results depend on the processing

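Of the collagen genes called for ozone, 13 of 18 in deficient and 14 of 20 in wildtype lungs were called under every alternative, against 0 of 8 called for sex and 0 of 1 called for genotype. The others are given with their values above. Leaving out 1 array gave 0 to 1 called gene for genotype averaged over exposures, and no sex term gave 0, the replicate block 0 and the fit without the 3 air arrays 0. Array weights gave 1 gene (Col4a3) lower in deficient lungs in ozone. For sex, ozone arrays alone gave 1, air arrays alone 1, and testing every probe set 13 lower in males. With the mean of all probe sets Ddr1 differed by 0.0161 in deficient and 0.0079 in wildtype lungs for ozone. The causes were not tested, apart from fewer arrays or more probe sets where the setting itself brings them. In a paired analysis with the sex and replicate label as a replicate block, 18 collagen genes were called for ozone in deficient and 19 in wildtype lungs. Same-numbered arrays did not deviate together (24 pairs of groups and labels, correlations from -0.31 to 0.13, 2 of them over 0.1), so the numbers only name the mice.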
